A study of Mus musculus with 6 samples.

Results

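The inflammasome and gasdermin genes described here are 8 mouse genes, chosen by their symbols, of 32285 genes counted. They are the sensors Nlrp3 and Aim2, the adaptor Pycard, the inflammatory caspases Casp1 and Casp4, the pore formers Gsdmd and Gsdme, and the cytokine gene Il18. Single-cell RNA sequencing (3' tag counting with unique molecular identifiers, UMIs) was applied to orthotopic pancreatic tumours of C57BL/6 mice. The tumours were raised from KPC cells, a pancreatic cancer line from engineered mice with a pancreatic Pdx1-driven Cre, injected into mice of 6 to 8 weeks and harvested 4 weeks later. Both groups received engineered KPC cells: the OE-Vector tumours carried the empty vector and the OE-MLKL tumours cells made to overexpress MLKL, the executioner of necroptosis. The series has 3 tumours per group. Count matrices of 4 libraries, OE-Vector 1 and OE-MLKL 1, 2 and 3, were used, and the matrices of the other OE-Vector tumours were not analysed here.

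Inflammasomes are cytosolic complexes in which a sensor recruits the adaptor ASC, encoded by Pycard, and ASC in turn brings caspase-1 into a cluster where it activates itself. NLRP3 responds to membrane damage and ion loss, and AIM2 binds double-stranded DNA in the cytosol. Active caspase-1 matures the interleukin-1 family cytokines IL-1beta and IL-18 and cleaves gasdermin D, whose fragments form membrane pores, and caspase-4 (the mouse caspase-11) cleaves gasdermin D after sensing bacterial lipopolysaccharide. Gasdermin E is another pore former, which can turn apoptosis into lytic death. In tumours, myeloid cells are the cells best known for inflammasome activity. The genes encode proteins that are held inactive until triggered, so RNA levels describe which parts of the machinery a cell transcribes and not whether it was switched on.

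The 8 genes lie on 6 chromosomes of the mouse genome (GRCm38, positions from GENCODE vM21). Nlrp3 spans chr11:59541568-59566956, Pycard chr7:127989708-127993867, Aim2 chr1:173350879-173466040, Gsdmd chr15:75862327-75867408 and Gsdme chr6:50188888-50263862. Il18 spans chr9:50554827-50581840. Casp1 (chr9:5298517-5307265) and Casp4 (chr9:5308828-5336783) are neighbours on the same strand with 1562 bases between them. Gsdme, Pycard, Aim2 and Il18 overlap other annotated genes on the opposite strand, and how far the counting used strand was not given in the sources used here. The 250 bases before the RefSeq start (GRCm38.p6) are shown for 5 of the 6 genes whose neutrophil levels set OE-MLKL 1 and 2 apart from the other libraries. The window of the sixth, Gsdme, lies inside its GENCODE gene span and matched none of the motifs, and is not printed. The Casp4 window runs past the GENCODE start of its gene. Letters are in capitals where 1 of 5 searched motifs matched on either strand.

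The windows, each 5′ to 3′ on the strand of the gene, were as follows.
Nlrp3 promoter, chr11:59541319-59541568, strand +: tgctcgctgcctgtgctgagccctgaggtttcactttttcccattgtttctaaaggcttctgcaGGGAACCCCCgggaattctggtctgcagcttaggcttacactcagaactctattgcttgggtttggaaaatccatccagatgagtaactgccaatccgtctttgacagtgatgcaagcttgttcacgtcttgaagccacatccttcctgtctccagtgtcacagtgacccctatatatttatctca
Casp4 promoter, chr9:5308599-5308848, strand +: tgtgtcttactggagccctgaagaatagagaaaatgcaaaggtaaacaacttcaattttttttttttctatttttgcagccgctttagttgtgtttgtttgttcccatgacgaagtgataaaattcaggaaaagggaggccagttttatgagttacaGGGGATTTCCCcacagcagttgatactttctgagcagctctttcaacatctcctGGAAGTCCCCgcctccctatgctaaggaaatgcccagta
Pycard promoter, chr7:127993868-127994117, strand -: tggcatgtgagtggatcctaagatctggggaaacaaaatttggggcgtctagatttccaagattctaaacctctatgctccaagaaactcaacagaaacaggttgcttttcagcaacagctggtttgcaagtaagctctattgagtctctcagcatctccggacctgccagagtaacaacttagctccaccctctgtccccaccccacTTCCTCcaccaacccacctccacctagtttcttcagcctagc
Casp1 promoter, chr9:5298267-5298516, strand +: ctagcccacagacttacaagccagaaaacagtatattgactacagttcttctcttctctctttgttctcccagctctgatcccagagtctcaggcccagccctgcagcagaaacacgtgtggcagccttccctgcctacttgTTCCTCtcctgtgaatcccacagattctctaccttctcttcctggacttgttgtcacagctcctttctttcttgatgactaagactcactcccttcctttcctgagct
Il18 promoter, chr9:50554450-50554699, strand +: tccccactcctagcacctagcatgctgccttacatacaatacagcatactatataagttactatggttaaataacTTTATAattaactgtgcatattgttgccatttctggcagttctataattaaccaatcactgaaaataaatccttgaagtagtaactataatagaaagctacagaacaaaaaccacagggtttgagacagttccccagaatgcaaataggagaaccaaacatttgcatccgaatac

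Of the 8 genes, 7 had an entry in the promoter table, all but Gsdmd. The NF-kB consensus, a motif bound by the factor that drives much of inflammatory transcription, matched before Nlrp3 and Casp4 and in 7.25% of all 32851 promoter windows of this length. The PU.1 core GAGGAA, from a myeloid transcription factor, matched before Casp1, Pycard and Aim2 and in 23.3% of all windows. The Aim2 window (chr1:173420354-173420603) lies before its RefSeq start but inside its GENCODE gene span. The AP-1 motif TGANTCA (6.75% of windows) and the interferon response element (2.98%) matched before none of the 7, and the TATA box TATAAA (12.4%) matched before Il18. The capitals in the Nlrp3 and Casp4 sequences are therefore NF-kB matches, those in the Pycard and Casp1 sequences are the PU.1 core, and those in the Il18 sequence are the TATA match, on the other strand. The windows held 4 CpG dinucleotides for Nlrp3, 3 for Casp4, 2 for Pycard and 1 each for Casp1 and Il18, against a median of 6 over all windows, and that of Gsdme held 15.

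The libraries held 150591289 to 169978362 UMIs, and 63182 cells passed the filters, 13489 to 18808 per library. A marker gate placed 43977 of them (69.6%) into cancer cells, macrophages, neutrophils, T cells and dendritic cells. Genes kept out of the gate tracked the classes: S100a8 reached 27025 to 34455 CPM (UMIs scaled to a common total per class and library) in neutrophils and 65.1 to 196 in cancer cells, and Lck 246 to 367 CPM in T cells and at most 3.49 elsewhere. Mlkl itself, counted in the gated cancer cells, was 16.2 CPM in OE-Vector 1 and then 8.70, 12.6 and 19.98 in OE-MLKL 1, 2 and 3 (log2 fold change -0.37, SE 0.39, adjusted p = 0.9998). OE-MLKL 3 was thus above OE-Vector 1 by more than the counting error (18.9 to 21.1 against 15.3 to 17.2 CPM, exact 95% Poisson intervals), and OE-MLKL 1 and 2 were below it. A transgene without the gene's own 3' end would not be counted, and the construct's 3' end was not given in the sources used here. The Mlkl counts did not separate the labels, so each fold change between OE-MLKL and OE-Vector compares libraries as labelled, and whether a label is crossed was not tested. The libraries also stood apart in pairs that cross the labels, most clearly in neutrophils. Across the 7207 genes with a mean of at least 10 CPM in neutrophils, OE-Vector 1 correlated with OE-MLKL 3 at r = 0.949 and with OE-MLKL 1 and 2 at 0.866 and 0.898, while OE-MLKL 1 and 2 correlated with each other at 0.966 (a description over genes, which are not independent). OE-MLKL 1 and 2 were also each other's closest library in cancer cells, macrophages and T cells, but not in dendritic cells. OE-MLKL 3 was the library most like OE-Vector 1 in macrophages, neutrophils, T cells and dendritic cells, while in cancer cells OE-MLKL 2 was (0.955, against 0.951 for OE-MLKL 3). The largest neutrophil cluster drew 2746 cells from OE-Vector 1, 3744 from OE-MLKL 3, 22 from OE-MLKL 1 and 37 from OE-MLKL 2, so each comparison of the labels is also given without OE-MLKL 3. That library was picked for its likeness to OE-Vector 1, which leaves 1 library against the pair most alike among the OE-MLKL libraries in 4 of the 5 classes. The choice itself favours calls between the labels, so values without OE-MLKL 3 are descriptions and their calls are no evidence of a difference between OE-MLKL and OE-Vector. Between 188 and 251 cells per library carried a barcode that was a cell in another library.

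Reads of free RNA enter every droplet, so the level a class could gain from it was bounded by the profile of barcodes with at most 100 UMIs, scaled to the level in that class of genes that belong to other cells (S100a8 and S100a9, or Apoe, Cd74 and Sparc in neutrophils). Intervals in the plots cover counting error only. Where a library had no UMI of a gene, the limit is the level that 3 UMIs would give.

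Between the 5 cell classes, the members separated into a few distinct patterns. In a fit of all 20 class-by-library sums with the library as a block, 57 of 80 tests (8 genes over 10 pairs of classes) passed an adjusted p of 0.05 by the quasi-likelihood test of edgeR, adjusted by Benjamini-Hochberg across 13052 genes. The fit scales the sums by the TMM factors of edgeR and CPM by the total alone, so its log2 differences are not ratios of the CPM values. Differences between cell classes are common in these data: 68.1% of all genes differed between cancer cells and macrophages, 79.9% between cancer cells and neutrophils, 65.5% between cancer cells and T cells, and 55.6% between cancer cells and dendritic cells. The share was 69.3% for macrophages and neutrophils, 61% for macrophages and T cells, 37.3% for macrophages and dendritic cells, 72.2% for neutrophils and T cells, 60.1% for neutrophils and dendritic cells, and 35.9% for T cells and dendritic cells. The members gave 6, 6, 3, 6, 6, 7, 6, 7, 6 and 4 of 8 calls in those 10 pairs, in that order, and with 8 genes no pair is called apart from its background. Of the 57 calls, 40 held under all 12 alternatives.

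Nlrp3, the sensor of membrane damage, was highest in neutrophils. In neutrophils it was 356 CPM in OE-Vector 1 and then 97.9, 151 and 432 in OE-MLKL 1, 2 and 3, and in macrophages 58.4, 55.8, 46.2 and 111 CPM in the same order. Every library was higher in neutrophils than in macrophages, and the log2 difference of macrophages over neutrophils was -2.03 (SE 0.30, adjusted p = 7.03e-06). Dendritic cells followed with 19.0, 52.7, 36.1 and 51.8 CPM. T cells (2.62 to 7.23 CPM) stood at 1.09 to 1.93 times the free-RNA bound. Cancer cells, at 2.78, 0.758, 1.35 and 5.27 CPM, were at 0.983 to 1.34 times that bound, above it in 3 of 4 libraries. The log2 difference of cancer cells over neutrophils was -7.24 (SE 0.37, adjusted p = 1.59e-12), the largest of the 80.

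Pycard, the adaptor ASC that both sensors need, was higher in all 4 leucocyte classes than in cancer cells. Macrophages held 283 CPM in OE-Vector 1 and then 225, 344 and 248 in OE-MLKL 1, 2 and 3. T cells held 193, 145, 243 and 147 CPM, and dendritic cells 175, 138, 235 and 107. Neutrophils spread most, at 63.3, 284, 363 and 104 CPM, and their OE-Vector 1 and OE-MLKL 3 values lay below every library of the other leucocyte classes. Cancer cells held 4.38, 4.55, 5.75 and 7.84 CPM, 1.57 to 2.26 times the free-RNA bound. Cancer cells were lower than each of the 4 leucocyte classes by 5.04 to 5.82 on the log2 scale (adjusted p at most 6.31e-10), and no library overlapped. Among the leucocytes, 5 of the 6 pairs did not pass the test and macrophages over T cells did (0.79, SE 0.30, adjusted p = 0.0317), a call lost under 4 alternatives.

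Aim2, the DNA sensor, had the smallest ratio of highest to lowest class mean among the members (1.87, with 2.02 for Casp1 next), from 53.1 CPM in macrophages to 99.2 in neutrophils. Cancer cells held 51.0 CPM in OE-Vector 1 and then 59.2, 53.4 and 65.9 in OE-MLKL 1, 2 and 3, which is 17.5 to 26.2 times the free-RNA bound. Macrophages held 47.3, 38.8, 53.8 and 72.6 CPM and the test against cancer cells did not pass (log2 difference of cancer cells over macrophages -0.10, SE 0.12, adjusted p = 0.502). In CPM the class mean was the higher in cancer cells (57.4 against 53.1), so the fit and CPM differ in sign here. Neutrophils were highest with 102, 84.3, 86.4 and 125 CPM, and exceeded macrophages in every library (macrophages over neutrophils -1.16 on the log2 scale, SE 0.13, adjusted p = 2.07e-07). T cells (69.8 to 107 CPM) and dendritic cells (62.6 to 83.3 CPM) lay between. Aim2 covers 115162 bases and shares 16817 of them with Cadm3 on the other strand, so its counts are uncertain where the counting took introns.

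Casp1, the protease of the canonical inflammasome, had class means from 15.6 CPM in dendritic cells to 31.5 in macrophages. Cancer cells held 40.0 CPM in OE-Vector 1 and then 20.1, 19.5 and 27.8 in OE-MLKL 1, 2 and 3, and macrophages held 39.9, 26.4, 26.6 and 33.1. The ranges overlapped, and the difference of cancer cells over macrophages (-0.50, SE 0.18, adjusted p = 0.0200) was lost under 4 alternatives. Neutrophils ranged from 15.7 to 32.0 CPM, T cells from 14.8 to 25.2 and dendritic cells from 9.88 to 25.8. Macrophages were above T cells by 0.95 (SE 0.21, adjusted p = 0.000646) and above dendritic cells by 1.24 (SE 0.29, adjusted p = 0.00236).

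Casp4, the lipopolysaccharide sensor next to Casp1, had its highest class means in neutrophils and macrophages. Neutrophils held 79.0 CPM in OE-Vector 1 and then 44.7, 31.1 and 61.8 in OE-MLKL 1, 2 and 3, and macrophages 31.5, 44.4, 35.3 and 48.2. Cancer cells held 26.5, 16.6, 12.98 and 27.2 CPM, lower than macrophages in every library (log2 difference -1.24, SE 0.22, adjusted p = 5.46e-05). T cells ranged from 11.4 to 27.7 CPM and dendritic cells from 7.59 to 18.1, the latter from 3 to 23 UMIs per library. The log2 difference of macrophages over neutrophils was -0.64 (SE 0.23, adjusted p = 0.0181), a call lost under 4 alternatives, and in OE-MLKL 2 macrophages were the higher of the pair. For its neighbour Casp1 that difference was 0.20 (SE 0.20, adjusted p = 0.374), and the difference between the genes was not tested.

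**Figure D1:**
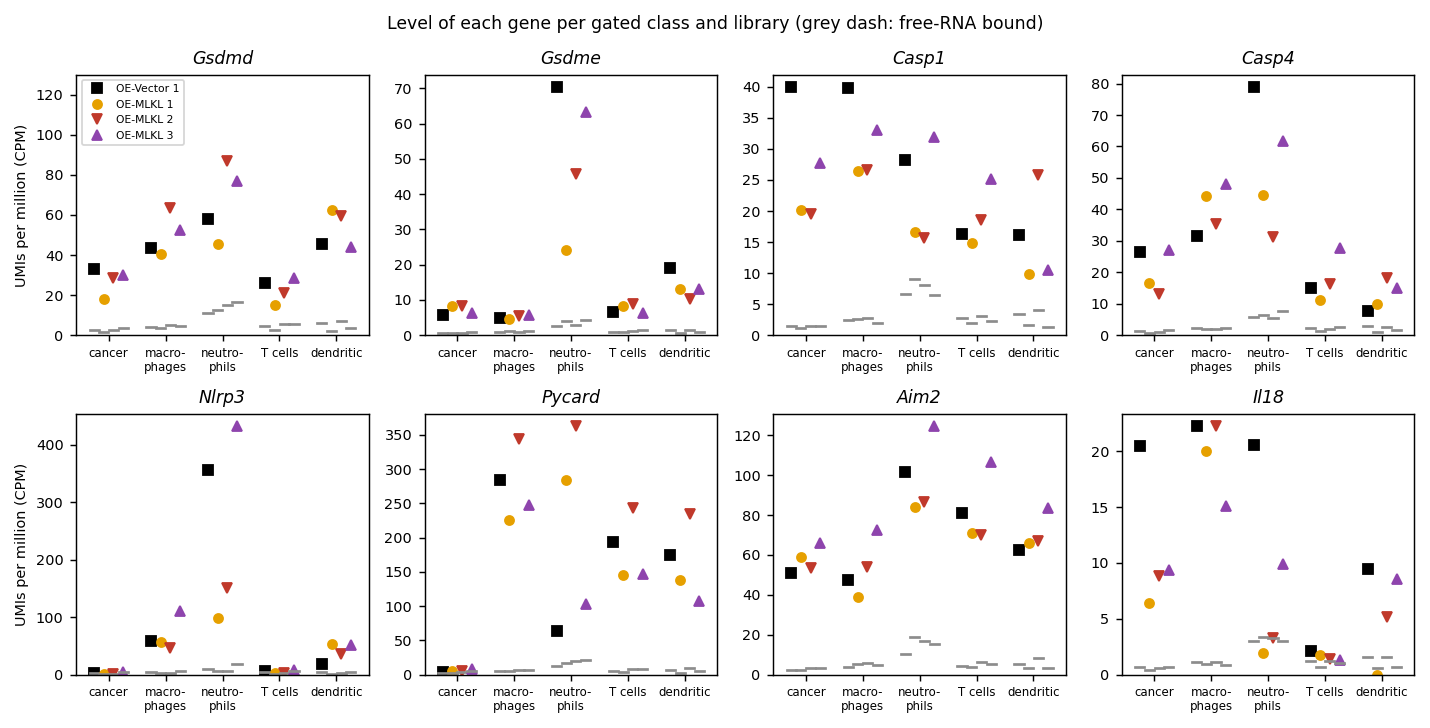
Level in CPM (UMIs scaled to a common total, linear axis from 0) of each of the 8 genes in each gated class, with 1 marker per library and a grey dash at the bound on free RNA for that class and library. Nlrp3 peaked in neutrophils (97.9 to 432 CPM) and Pycard was present in all 4 leucocyte classes (63.3 to 363 CPM in neutrophils) and near the bound in cancer cells (4.38 to 7.84 CPM).

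Gsdmd, the pore former cut by caspase-1 and caspase-4, was present in all 5 classes. Neutrophils held 58.0 CPM in OE-Vector 1 and then 45.4, 86.7 and 76.8 in OE-MLKL 1, 2 and 3. Macrophages held 43.6, 40.3, 63.2 and 52.6, and dendritic cells 45.5, 62.6, 59.4 and 43.9 CPM. Cancer cells held 33.2, 18.2, 28.7 and 30.3 CPM, lower than macrophages in every library (log2 difference -1.10, SE 0.15, adjusted p = 2.16e-06). T cells were lowest at 14.8 to 28.3 CPM and the test against cancer cells did not pass (0.21, SE 0.17, adjusted p = 0.273, cancer cells over T cells).

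Gsdme, the pore former that links apoptosis to lytic death, was highest in neutrophils. They held 70.4 CPM in OE-Vector 1 and then 24.1, 45.8 and 63.2 in OE-MLKL 1, 2 and 3, from 62 to 344 UMIs. Cancer cells held 5.69, 8.42, 8.18 and 6.32 CPM and macrophages 4.97, 4.56, 5.45 and 5.62. The lowest neutrophil library lay above every library of the other 4 classes, the highest of which was 19.0 CPM in dendritic cells. The log2 difference over neutrophils was -3.30 for cancer cells (SE 0.26, adjusted p = 9.82e-10) and -3.56 for macrophages (SE 0.28, adjusted p = 1.98e-09). Neutrophils yielded few UMIs, with medians of 737 to 1411.5 per cell. Cancer cells contributed 44.5% to 83.2% of all Gsdme UMIs of the 5 classes.

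Il18, the cytokine gene, had its highest class means in macrophages and cancer cells. Cancer cells lay above neutrophils in 2 of 4 libraries, and the tests of cancer cells over neutrophils and over dendritic cells did not pass. Macrophages held 22.2 CPM in OE-Vector 1 and then 20.05, 22.2 and 15.1 in OE-MLKL 1, 2 and 3, and cancer cells 20.4, 6.36, 8.87 and 9.39. Cancer cells were lower than macrophages in every library (-1.23, SE 0.30, adjusted p = 0.00114). Neutrophils held 20.5, 1.94, 3.27 and 9.93 CPM, of which OE-MLKL 1 and 2 (5 and 10 UMIs) were below the free-RNA bound. T cells (1.26 to 2.08 CPM) stood at 1.12 to 2.47 times the bound. Dendritic cells held 0 to 9.49 CPM, and their OE-MLKL 1 library had 0 UMIs, which allows up to 9.88 CPM.

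**Figure D2:**
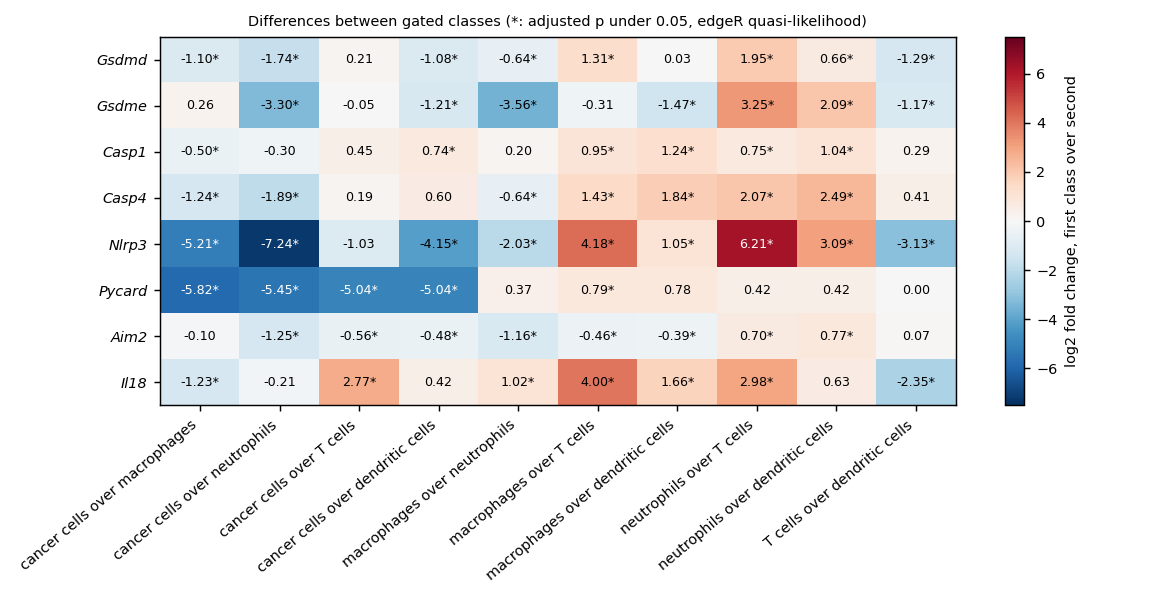
Log2 fold change of each gene (rows) for each of the 10 pairs of classes (columns, first over second), from the fit with the library as a block. Asterisks mark an adjusted p under 0.05, and the deepest colours are both Nlrp3, in cancer cells over neutrophils (-7.24) and in neutrophils over T cells (6.21).

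By the mean of the 4 libraries, neutrophils were the highest class for Nlrp3, Gsdme, Gsdmd, Casp4 and Aim2, and macrophages for Pycard, Casp1 and Il18. For Gsdmd and Casp4 the first class lay above the next in 3 of 4 libraries, for Pycard in 2 and for Casp1 in 3. Cancer cells held Aim2, Casp1, Casp4, Gsdmd and Il18 well above the free-RNA bound (8.26 to 31.3 times) while Nlrp3 and Pycard stood at or near it. Their Gsdme stood at 6.45 to 16.9 times the bound. T cells held Pycard and Aim2 and little Nlrp3 or Il18.

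The second question of the design was whether the members differ between OE-MLKL and OE-Vector tumours within a class. With all 4 libraries, none of the members passed in any class by edgeR (8 tested in cancer cells, macrophages and neutrophils, 7 in T cells and dendritic cells, where Il18 was too low), and DESeq2 also called 0 in each, where it called 0.515%, 0.501%, 0.88%, 0.13% and 0.0368% of the genes to which it gave an adjusted p (cancer cells, macrophages, neutrophils, T cells and dendritic cells). At an unadjusted p under 0.05 there were 2 in cancer cells (Casp1 and Il18), 3 in neutrophils (Casp4, Pycard and Il18), 1 in dendritic cells (Nlrp3), and 0 in macrophages and T cells. Over all genes, 4.33% had an unadjusted p under 0.05 in cancer cells, 5.8% in macrophages, 7.72% in neutrophils, 4.45% in T cells and 4.75% in dendritic cells. Few genes of any kind passed after adjustment: 0.00601% of 16644 genes in cancer cells, 0.0296% of 13506 in macrophages, 0% of 11537 in neutrophils, 0.00887% of 11276 in T cells and 0.0123% of 8154 in dendritic cells. In neutrophils, where edgeR called 0, 891 genes had an unadjusted p under 0.05, and DESeq2 called 72 of 8182. The only spread in these fits is that among the OE-MLKL libraries, since OE-Vector has 1 library, which is assumed to vary like them. Each tumour is 1 library, so the p-values rest on the spread among the OE-MLKL tumours and not on any spread between OE-Vector tumours.

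In cancer cells, Casp1 and Il18 were lower in all 3 OE-MLKL libraries. The Casp1 values, 40.0 against 20.1, 19.5 and 27.8 CPM, gave a log2 fold change of -0.94 (SE 0.25, unadjusted p = 0.00864, adjusted p = 0.969). Il18, at 20.4 against 6.36, 8.87 and 9.39 CPM, gave -1.42 (SE 0.31, unadjusted p = 0.00295, adjusted p = 0.923). OE-Vector 1 was above the whole OE-MLKL range for 3 of the 8 members (Gsdmd, Casp1 and Il18), below it for 3 (Gsdme, Pycard and Aim2) and within it for 2. The median log2 fold change of the 8 was -0.42, against 0.04 over all genes tested. Without OE-MLKL 3, the library picked for its likeness to OE-Vector 1, the values were -1.01 (SE 0.20) for Casp1 and -1.42 (SE 0.27) for Il18. These were then called, as were 3.02% of all genes, and in every other setting 0 members were.

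Cancer cells of the libraries lay in different clusters. Cluster 0, the largest of cancer cells, drew 116 cells from OE-Vector 1, 3598 and 2946 from OE-MLKL 1 and 2 and 10 from OE-MLKL 3, and cluster 6 drew 1606, 199, 451 and 2428. Cells with an interferon-induced program (at least 2 of Isg15, Rsad2, Ifit1 and Ifit3 detected) were 1150 of 2394 gated cancer cells in OE-Vector 1, and 561 of 5945, 836 of 5930 and 1005 of 2942 in OE-MLKL 1, 2 and 3. Detection follows depth, and median UMIs per cancer cell were 24996, 11467, 11268.5 and 20266.5 in the same order. Thinned to 5000 UMIs per cell, which left out 229 to 349 shallower cells per library, the share in the program was 14.5%, 3.84%, 6.08% and 9.60% (48.04%, 9.44%, 14.1% and 34.2% unthinned), with the libraries in the same order. In the cells outside this program, Casp1 was 32.2 CPM in OE-Vector 1 and then 19.5, 17.9 and 23.0. Since detection follows depth, the cells outside are not free of the program. Il18 outside it was 21.3 against 6.14, 8.56 and 8.74 CPM and inside it 19.8 against 7.99, 10.4 and 10.3, with OE-Vector 1 highest in both. Summed endothelial markers in the gated cancer cells (20.6 against 6.23, 7.68 and 9.12 CPM) ran in the order of Il18. So did fibroblast and mesothelial markers (161 against 89.6, 92.7 and 132 CPM), while macrophage markers (151 against 82.7, 127 and 296 CPM) did not. The part of the clusters, of depth, of the program or of markers of other cells in the Casp1 and Il18 values was not tested.

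In neutrophils OE-MLKL 3 was the library nearest to OE-Vector 1 for 6 of the 8 members, all but Gsdmd and Aim2. The median log2 fold change of the 8 was -0.75, against 0.05 over all genes tested. Nlrp3 was 356 CPM in OE-Vector 1, then 97.9, 151 and 432 in OE-MLKL 1, 2 and 3, so that OE-MLKL 3 was the highest and the OE-Vector value lay inside the OE-MLKL range (log2 fold change -0.89, SE 0.71, adjusted p = 0.788). Pycard ran the other way, at 63.3 CPM against 284, 363 and 104, with OE-Vector 1 lowest and OE-MLKL 3 nearest to it (1.77, SE 0.75, adjusted p = 0.646). Casp1 was 28.2 against 16.7, 15.7 and 32.0 CPM.

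Gsdme was 70.4 against 24.1, 45.8 and 63.2 CPM (-0.89, SE 0.47, adjusted p = 0.691), and Casp4 79.0 against 44.7, 31.1 and 61.8 (-1.01, SE 0.40, adjusted p = 0.630). Il18 was 20.5 against 1.94, 3.27 and 9.93 CPM (-2.16, SE 0.67, adjusted p = 0.566). For these 3 genes OE-Vector 1 lay above the whole OE-MLKL range. Gsdmd (58.0 against 45.4, 86.7 and 76.8) and Aim2 (102 against 84.3, 86.4 and 125) did not order this way.

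Without OE-MLKL 3, the values describe the distance of OE-Vector 1 from the close pair OE-MLKL 1 and 2. On the log2 scale Nlrp3 was -1.73 (SE 0.28), Gsdme -1.21 (SE 0.32) and Casp4 -1.27 (SE 0.28). Casp1 was -1.01 (SE 0.27) and Il18 -3.15 (SE 0.42), though the OE-MLKL 1 and 2 values of Il18 lie below the free-RNA bound. For Casp1 that bound was 9.11 and 8.12 CPM in OE-MLKL 1 and 2, beside levels of 16.7 and 15.7, and 6.58 CPM in OE-Vector 1, beside 28.2, and the part of free RNA in its value was not tested. Pycard was 2.14 (SE 0.29), Gsdmd -0.02 (SE 0.33) and Aim2 -0.46 (SE 0.23). In that fit 6 of 8 members were called, all but Gsdmd and Aim2, as were 12.5% of all 10702 genes. Since OE-MLKL 3 was left out for its likeness to OE-Vector 1, the selection sets these calls up, and 0 members were called with all libraries or without OE-MLKL 1 or 2.

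**Figure D3:**
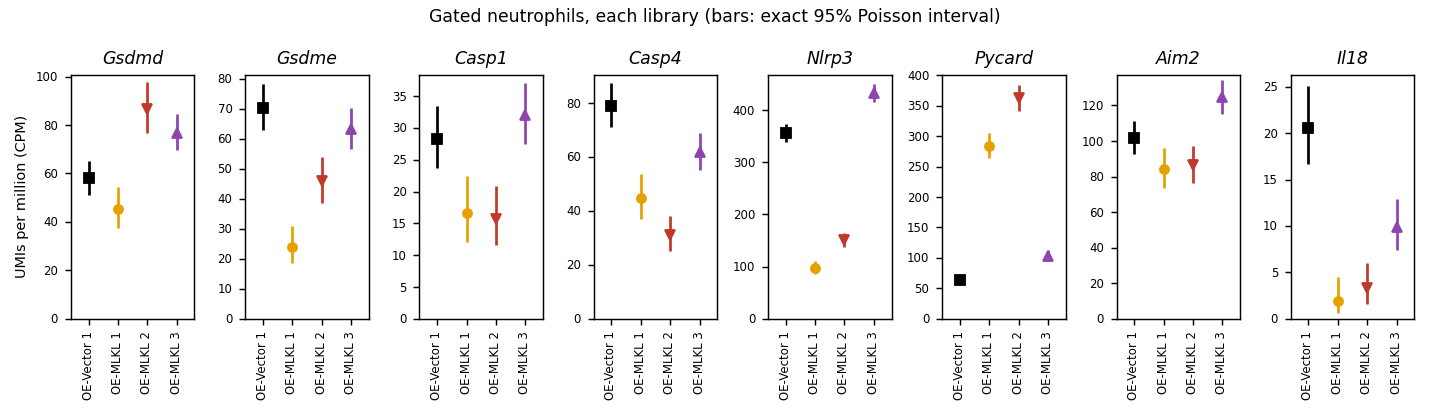
Level in CPM (UMIs scaled to a common total, linear axes from 0, 1 panel per gene) in the gated neutrophils of each library, with exact 95% Poisson intervals that cover counting error only. OE-Vector 1 and OE-MLKL 3 sit together for Nlrp3 (356 and 432 CPM) and Pycard (63.3 and 104 CPM), apart from OE-MLKL 1 and 2.

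Other measures moved with the neutrophil levels, and their part in the result was not tested. Neutrophils with the same interferon-induced program as defined for cancer cells were 621 of 3779 in OE-Vector 1 and then 30 of 3201, 50 of 3809 and 323 of 3604, the order of Il18. Thinned to 500 UMIs per cell the share was 8.60%, 0.625%, 0.735% and 3.02% (16.4%, 0.937%, 1.31% and 8.96% unthinned). Casp4 was higher inside the program in all 4 libraries (161, 104, 123 and 132 CPM against 60.9, 44.0, 29.6 and 54.3), though OE-MLKL 1 and 2 rest on 3 and 6 UMIs inside it. Il18 in OE-Vector 1 was 49.7 CPM inside and 14.1 outside, and outside the program it was 1.96, 2.99 and 7.73 CPM in OE-MLKL 1, 2 and 3. Outside the program OE-Vector 1 was the highest library for both genes. The share in the program was lower after thinning in every library, so detection follows depth and the cells outside are not free of the program. Its part in either gene was not tested.

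Depth and markers of other cells also differed. Of the 5 monocyte-list genes, Chil3, a chitinase-like gene also made by neutrophils, was 57.6 CPM in OE-Vector 1 and then 7079, 8135 and 2255 in OE-MLKL 1, 2 and 3. Ly6c2 was 112 to 147 CPM and Ccr2, the defining monocyte receptor, 0.777 to 5.56 CPM. The summed list was 199 CPM in OE-Vector 1 and 2426 to 8289 CPM in the OE-MLKL libraries, and none of its genes was at 0. Median UMIs per neutrophil were 1167 in OE-Vector 1 and then 737, 759 and 1411.5 in OE-MLKL 1, 2 and 3. Thinned to 500 UMIs per cell, the share of neutrophils with a Nlrp3 UMI was 14.7%, 4.12%, 6.54% and 18.6% (28.1%, 7.22%, 10.7% and 41.6% unthinned). For Pycard it was 2.91%, 12.7%, 15.3% and 4.27% (6.51%, 18.7%, 21.8% and 12.3% unthinned), so for both genes the order of the libraries was the same before and after thinning. The summed macrophage markers in neutrophils, 435, 214, 294 and 723 CPM, and the enterocyte markers, 175, 94.4, 133 and 514 CPM, ran in the order of Nlrp3. Other lists did not: the cancer cell, T cell and dendritic cell markers were lowest in OE-MLKL 2 (57.6, 8.84 and 14.1 CPM). The free-RNA probes Apoe, Cd74 and Sparc were lowest in OE-Vector 1 (1318 against 1937, 1620 and 2365 CPM). The Nlrp3 share in cancer cells, whose level stood near the free-RNA bound, was at most 0.340% after thinning, at median depths of 11268.5 to 24996 UMIs.

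Whether the change differs between classes was not tested. In macrophages the median log2 fold change was 0.03, and Casp1 was the one member with OE-Vector 1 above all OE-MLKL libraries (39.9 against 26.4, 26.6 and 33.1 CPM, -0.58, SE 0.26, adjusted p = 0.864). Nlrp3 in macrophages was 58.4 against 55.8, 46.2 and 111 CPM, where OE-MLKL 3 alone was high (0.16, SE 0.46, adjusted p = 0.974). Macrophages of the libraries lay in different clusters: cluster 3 drew 757 cells from OE-Vector 1 and then 2464, 2066 and 316 from OE-MLKL 1, 2 and 3, and cluster 11 drew 879, 33, 134 and 2272. The summed monocyte list in macrophages was 682 CPM against 2143, 2205 and 863. Its most abundant genes were Chil3 (181 against 1389, 1010 and 262 CPM) and F13a1 (343 against 662, 1058 and 495). Ccr2 ran the other way (136 against 39.3, 104 and 98.0 CPM), and Ly6c2 was 16.4 against 44.0, 27.1 and 4.37. The part of the clusters or of these genes in the member values was not tested. In dendritic cells Nlrp3 was 19.0 against 52.7, 36.1 and 51.8 CPM, from 14 to 79 UMIs per library, with OE-Vector 1 lowest (1.25, SE 0.51, unadjusted p = 0.0221, adjusted p = 0.890). The summed monocyte list there was 81.6 against 122, 333 and 162 CPM, with Chil3 at 5.69 against 56.0, 152 and 28.9 and Ccr2 at 61.7 against 36.2, 150 and 110. The part of these genes or of the mature state described below in the Nlrp3 values was not tested. T cells had no member with an unadjusted p under 0.05, and their median log2 fold change was -0.02. Without OE-MLKL 3, 0 of the 8, 7 and 5 members tested were called in macrophages, T cells and dendritic cells, where 1.93%, 0% and 2.38% of all genes were.

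**Figure D4:**
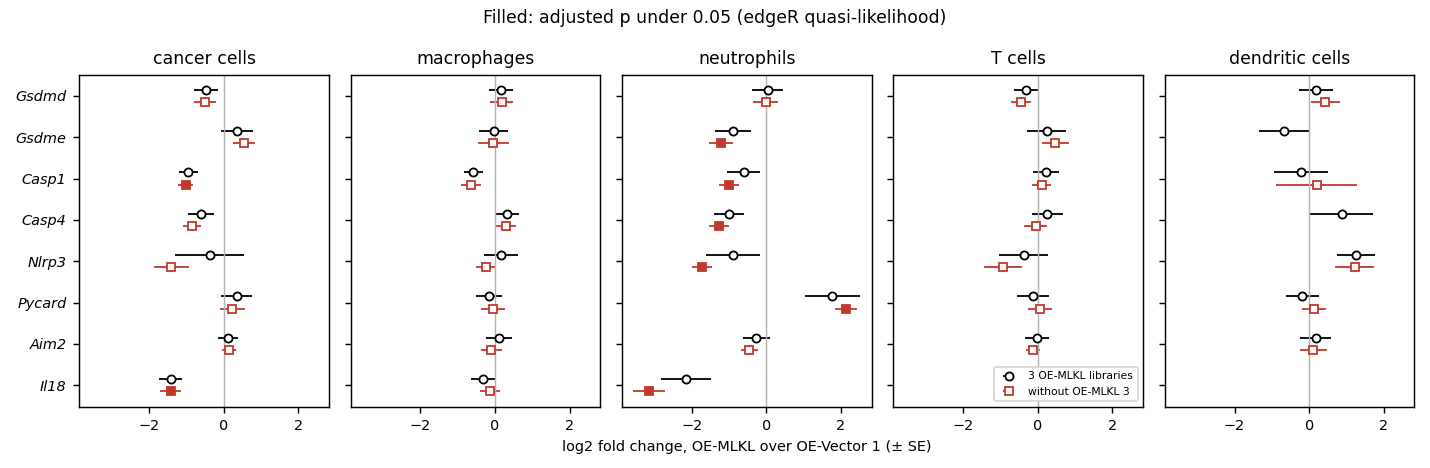
Change of each gene in OE-MLKL tumours relative to OE-Vector 1, on the log2 scale (bars: SE) in each class, with all 3 OE-MLKL libraries (circles) and without OE-MLKL 3 (squares). No circle is filled, and the filled squares (adjusted p under 0.05) are Casp1 and Il18 in cancer cells and 6 genes in neutrophils, with Pycard at 2.14; OE-MLKL 3 was left out for its likeness to OE-Vector 1, which favours these calls. Genes too low to test have no marker.

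Within a class, cells could be split by marker genes of known states. The levels inside and outside a state come from the same libraries and are given as descriptions, and UMIs per cell differed too: median UMIs were higher inside the interferon state of cancer cells and the Arg1-positive state, and lower inside the mature dendritic and regulatory T states, in all 4 libraries. In cancer cells with the interferon-induced program, Casp1 was higher than in the rest in all 4 libraries. It was 45.6, 24.5, 27.2 and 34.6 CPM inside against 32.2, 19.5, 17.9 and 23.0 outside (OE-Vector 1, then OE-MLKL 1, 2 and 3). Casp4 was also higher in all 4, at 31.5, 22.0, 19.2 and 35.1 CPM inside and 19.4, 15.8, 11.7 and 21.7 outside. Both inflammatory caspases are known interferon-induced genes. Gsdmd was higher inside in all 4 libraries too, by less (34.4, 21.7, 32.7 and 33.1 against 31.6, 17.8, 27.8 and 28.3 CPM), and Gsdme, Nlrp3 and Aim2 were higher in 0, 0 and 1.

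Neutrophils with at least 2 UMIs of Ccl3 and Ccl4, chemokine genes of activated cells, split Nlrp3 from Gsdme. Nlrp3 was higher inside this state in all 4 libraries (466, 145, 207 and 512 CPM against 288, 92.7, 145 and 405). Gsdme was lower inside in all 4 (40.5, 7.85, 40.0 and 54.9 against 88.8, 25.9, 46.4 and 66.0 CPM), although OE-MLKL 1 and 2 rest on 2 and 11 UMIs. The order of libraries for Nlrp3 was the same inside and outside the state. Pycard outside it was 70.1, 287, 371 and 94.96 CPM, again lowest in OE-Vector 1. The state held 1376, 281, 337 and 872 cells.

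In T cells, Casp1 was higher in CD4 cells that lacked Cd8a, Cd8b1 and Foxp3 counts than in the remaining T cells in all 4 libraries, at 37.6, 56.9, 36.5 and 32.9 CPM against 11.5, 12.1, 14.6 and 24.3. These rest on 33, 8, 14 and 10 UMIs. Casp4 was higher in these CD4 cells in all 4 libraries too, from 64 UMIs in all and at least 7 per library. Pycard was also higher in these CD4 cells in all 4 libraries (204, 199, 266 and 165 CPM against 191, 142, 238 and 145), and in Foxp3 regulatory T cells in all 4 (259, 290, 362 and 187 CPM against 188, 142, 235 and 144). In dendritic cells, the mature state (at least 2 of Ccr7, Fscn1 and Ccl22) held 40 cells in OE-Vector 1 and then 6, 18 and 22, beside 59, 42, 48 and 142 other dendritic cells. Nlrp3 in that state was 3.44 CPM in OE-Vector 1 and 7.48 in OE-MLKL 3, from 1 UMI each, against 24.9 and 56.1 CPM in the rest. In OE-MLKL 1 and 2 it had 0 UMIs, which allows up to 149 and 44.0 CPM, so a difference from the rest (56.5 and 43.8 CPM) was not detectable there. In Arg1-positive macrophages Pycard was higher than in the rest in all 4 libraries (291, 254, 355 and 251 against 250, 186, 311 and 242 CPM), and Nlrp3 in 2.

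A list of 42 further pathway genes (sensors, regulators, other gasdermins, interleukin-1 family members, guanylate-binding proteins) gives the surroundings. Between OE-MLKL and OE-Vector none of the 25 to 34 genes tested per class passed in either direction by edgeR. The counts at an unadjusted p under 0.05 were 2 of 34 in cancer cells, 3 of 33 in macrophages, 7 of 31 in neutrophils, 5 of 25 in T cells and 2 of 25 in dendritic cells, beside 4.33%, 5.8%, 7.72%, 4.45% and 4.75% of all genes. DESeq2 called 4 list genes in neutrophils (Il1rn, Il1a, Ninj1 and Mefv, all lower), where it called 0.88% of 8182 genes, and 0 in the other classes. The 6 most abundant of the list in neutrophils were Il1b (11788 CPM in OE-Vector 1 and then 8278, 7599 and 11496 in OE-MLKL 1, 2 and 3), Txnip, Gbp2, Hsp90ab1, Il1rn and Ninj1. Txnip, a thioredoxin-binding protein that binds NLRP3, was level at 1073 to 1184 CPM. Il1rn, the interleukin-1 receptor antagonist, was 958 against 109, 118 and 230 CPM (-2.89, SE 0.45, unadjusted p = 0.000374, adjusted p = 0.367), with OE-Vector 1 far above the others. Ninj1, which ruptures the membrane after gasdermin pores form, was 590 against 198, 258 and 230 CPM (-1.59, SE 0.34, adjusted p = 0.501). Gbp2, a guanylate-binding protein that opens bacterial vacuoles, was 911 against 231, 431 and 901 CPM, with OE-MLKL 3 next to OE-Vector 1.

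Without OE-MLKL 3, left out for its likeness to OE-Vector 1, 11 of 27 list genes were called lower in neutrophils and 2 higher, beside 12.5% of all genes, while 0 of 31 were with all libraries. The 2 higher were Il18r1 (0.998, SE 0.28) and Il18rap (1.02, SE 0.27), the subunits of the IL-18 receptor. Among the lower were Mefv, the pyrin sensor (-2.75, SE 0.26), Il1a (-3.53, SE 0.34), and Casp8 (-1.12, SE 0.27), the initiator caspase of death receptors. In cancer cells 7 of 33 were called in that fit, all lower, beside 3.02% of all genes (365 lower and 123 higher). In macrophages, T cells and dendritic cells 0 were, beside 1.93%, 0% and 2.38%. Like the member calls without that library, these are descriptions.

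Between classes, 25 of 32 list genes were lower and 2 higher in cancer cells than in macrophages, where 68.1% of all 13052 genes differed. Against neutrophils 25 were lower and 5 higher, where 79.9% did. Against T cells 13 were lower and 10 higher, where 65.5% did, and against dendritic cells 19 were lower and 5 higher, where 55.6% did. All 32 were called in at least 1 of the 10 pairs. By the mean of the 4 libraries, 12 were highest in neutrophils, 10 in macrophages, 4 each in T cells and dendritic cells and 2 in cancer cells.

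Among the sensors, Nlrp12 (56.7 CPM in neutrophils, at most 0.495 elsewhere) and Mefv (67.4 CPM, at most 19.6 elsewhere) had their highest mean in neutrophils. Nlrc4, which acts with the NAIP sensors of bacterial flagellin and secretion proteins, was 13.5 CPM in macrophages and 3.16 in dendritic cells. The dendritic value of Nlrc4 was 0 CPM in OE-MLKL 2. Naip2 was 52.5 CPM in macrophages and 47.2 in neutrophils, and Naip5 and Naip6 were also highest in macrophages (17.2 and 10.3 CPM), values that are uncertain because these paralogs can share reads. Nlrp1b had its highest mean in dendritic cells (15.4 CPM) and the next in macrophages (11.7), both raised by OE-MLKL 3. Dendritic cells held 8.54 CPM in OE-Vector 1 and then 3.29, 10.3 and 39.3 in OE-MLKL 1, 2 and 3, from few UMIs. Macrophages held 6.15, 4.74, 7.77 and 28.2 CPM in the same order, and were the higher class in OE-MLKL 1. P2rx7, the ATP-gated channel upstream of NLRP3, was 82.5 CPM in macrophages and 26.8 in T cells. Of the subunits of the IL-18 receptor, Il18r1 was 195 CPM in T cells and Il18rap 256 CPM in neutrophils and 159 in T cells. Il18bp, the secreted inhibitor of IL-18, was 91.5 CPM in macrophages and 58.9 in neutrophils. The list genes highest in cancer cells were Casp12 (77.7 CPM, at most 11.3 elsewhere) and Hsp90ab1, a chaperone gene, which was also the most abundant of the list there, in macrophages, in T cells and in dendritic cells (3799, 1235, 2534 and 1740 CPM).

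The genes most like each member were taken by Pearson correlation of log2(CPM + 1) over the 20 class-by-library sums among 8963 genes, as a description, since sums of 1 class resemble each other and those of 1 library share its depth. Nlrp3 was followed most closely by Bst1 (r = 0.984), Nfam1 (0.9752) and Picalm (0.9749), and Pycard by Fermt3 (0.957), Was (0.953) and Adap1 (0.952). Gsdmd was most like Snx10 (0.921), Gsdme most like Ppp1r2 (0.930) and Aim2 most like Sf3b1 (0.928). Casp4 was most like Pbx2 (0.889) and Il18 most like Sgpl1 (0.876). Casp1 had the loosest match, Gbp3, a guanylate-binding protein gene, at 0.841. Among the members themselves the closest pair was Gsdmd and Nlrp3 (0.872), and Casp1 was nearest to Il18 (0.692) and Casp4 (0.641).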

How the data were processed

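The deposited files hold UMI counts per gene and droplet barcode (Cell Ranger; 2.1.1 in the submitters' processing notes, 7.1.0 in the matrix headers; build mm10), unfiltered and not normalized by the authors. Barcodes with at least 500 UMIs, 200 genes and at most 10% mitochondrial and 5% haemoglobin UMIs were kept, and simulated-doublet neighbours (0.8% per 1000 cells) were removed. A cell joined a class when it held at least 3 distinct markers, a marker share of at least 0.15 of the 95th percentile and a 3-fold margin over the next class. The monocyte list was not among the classes compared, so this margin did not set monocytes apart. Counts were summed per library and class. OE-MLKL and OE-Vector were compared in each class, and the classes with the library as a block, by edgeR 4.0.16 (TMM, filterByExpr, quasi-likelihood test, Benjamini-Hochberg over all tested genes) in R 4.3.3; DESeq2 1.42.0 was an alternative. States within a class were assigned by marker UMIs. The script was tested on simulated data. The members, lists and tests were chosen with earlier results of these data known. All 8 members were to be named, with list genes that passed the test or were the 6 most abundant in a class, and up to 3 genes most like a member; of the list genes called between classes and the most abundant, some are given only as counts, and those named were chosen with their values known. Tumour digestion is given differently in the labels and the methods, and the gate's scoring was set after the files were seen. Results for some list genes are not reported here.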

Additional observations from a re-analysis of the deposited data

Results flagged for a closer look

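For Gsdme and Casp4, every OE-MLKL library lay on one side of OE-Vector 1 in one class and on the other side in another; the difference between the classes was not tested. Gsdme was higher in all 3 OE-MLKL libraries in cancer cells (8.42, 8.18 and 6.32 against 5.69 CPM) and lower in all 3 in neutrophils and in dendritic cells. The log2 fold change in cancer cells minus that in neutrophils was 1.25, and minus that in dendritic cells 1.03. Casp4 was higher in all 3 in macrophages and in dendritic cells and lower in all 3 in neutrophils (44.7, 31.1 and 61.8 against 79.0 CPM). The log2 fold change in macrophages minus that in neutrophils was 1.34, and in dendritic cells minus that in neutrophils 1.88, the dendritic values resting on 3 to 23 UMIs for Casp4 and 4 to 20 for Gsdme. None of these fold changes passed the test in its own class with all 4 libraries.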

How the results depend on the processing

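With all libraries, 0 members passed between OE-MLKL and OE-Vector in each class under every alternative run except leaving out OE-MLKL 3. Leaving out 1 OE-MLKL library gave 0 to 2 calls in cancer cells and 0 to 6 in neutrophils, the highest without OE-MLKL 3, a library singled out for its likeness to OE-Vector 1, so that leaving it out favours calls. Over all genes, calls numbered 0 to 488 in cancer cells, 0 to 250 in macrophages, 0 to 1336 in neutrophils, 0 to 84 in T cells and 1 to 145 in dendritic cells across the alternatives, with the highest without OE-MLKL 3 except in T cells, where it came with no filter on low counts. DESeq2 gave 79, 65, 72, 11 and 3. Between classes, 46 to 54 of 80 tests passed when 1 library was left out (46 without OE-MLKL 3, 50 without OE-Vector 1), 53 to 58 under the other alternatives, and 0 in the opposite direction. Some log2 fold changes between OE-MLKL and OE-Vector, none past the threshold, changed sign. With library size alone they were 0.071 for Gsdme in macrophages, 0.024 for Aim2 in T cells. With doublets kept they were 0.057 for Gsdme in macrophages, -0.030 for Gsdmd in neutrophils. Under the stricter gate they were -0.041 for Gsdmd in neutrophils, 0.031 for Aim2 in T cells, 0.44 for Casp1 in dendritic cells. With Leiden clusters they were 0.043 for Gsdme in macrophages, -0.040 for Gsdmd in neutrophils, 0.19 for Casp1 in dendritic cells, 0.053 for Pycard in dendritic cells. Leaving out 1 OE-MLKL library at a time gave -1.40 to 0.031 for Nlrp3 in cancer cells, -0.031 to 0.28 for Gsdmd in macrophages, -0.084 to 0.016 for Gsdme in macrophages, -0.25 to 0.37 for Nlrp3 in macrophages, -0.094 to 0.27 for Aim2 in macrophages, -0.15 to 0.25 for Gsdmd in neutrophils, -0.060 to 0.45 for Casp4 in T cells, -0.45 to 0.066 for Pycard in T cells, -0.14 to 0.051 for Aim2 in T cells, -0.73 to 0.20 for Casp1 in dendritic cells, -0.58 to 0.12 for Pycard in dendritic cells. Leaving out cells with shared barcodes was chosen after seeing the data. No paired analysis was possible because the groups share only replicate number 1 among the libraries used. DESeq2 was not run between classes. With 1 OE-Vector library, its own spread is unknown, and dendritic cells (48 to 164 per library) gave few UMIs.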
